A study of Mus musculus with 21 samples.

Results

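The kidney makes glucose from lactate, glutamine and glycerol and is a main site of fructose use. Here 8 genes that carry these steps were followed in mouse renal tubular epithelial cells (TECs) and neutrophils labelled as blood (PMNs). They were chosen by their function, as a list of symbols, out of 50406 autosomal genes with a transcript in the data. Earlier results of these data were known when the list was made. Pcx encodes pyruvate carboxylase, which turns pyruvate into oxaloacetate, and Pck1 encodes the cytosolic phosphoenolpyruvate carboxykinase. Fbp1 encodes fructose-1,6-bisphosphatase, and G6pc encodes the catalytic subunit of glucose-6-phosphatase, which releases free glucose inside the endoplasmic reticulum. Slc37a4 encodes the transporter that brings glucose 6-phosphate to that enzyme. Slc2a2 (GLUT2) and Slc2a5 (GLUT5) encode hexose transporters, GLUT2 at the basolateral side of the proximal tubule cell and GLUT5 with fructose as its main substrate. Khk encodes ketohexokinase, which phosphorylates fructose and sends it into fructolysis.

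In the kidney, gluconeogenesis takes place in the proximal tubule, whose cells oxidise fatty acids and carry little glycolytic activity. The proximal tubule also takes up fructose and breaks it down in a pathway that starts with ketohexokinase. Neutrophils depend on glycolysis, and the PMN libraries served here as the other cell type in which the same genes were read.

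The samples came from wildtype mice, described in the study's methods as male C57BL/6 animals of 8 to 12 weeks, and cells were isolated 24 hours after surgery. Ischemia-reperfusion injury (IRI) was set by clamping both renal pedicles for 32 minutes, and sham mice had the same surgery without clamps. Remote ischemic preconditioning (RIPC) was given before surgery with a pressure cuff on the hind limb, inflated 3 times for 5 minutes, whereas in control mice the cuff was inflated to a pressure too low to stop blood flow to the limb. The 8 groups were sham control, sham RIPC, IRI control and IRI RIPC in each cell type, with 3 libraries in 5 groups and 2 libraries in the other 3 (both IRI control groups and the PMN sham control group), 11 TEC and 10 PMN libraries in all. The study's methods call the libraries biological replicates, with the same number in every group, and count n in animals for experiments in mice. The groups of 2 thus hold fewer libraries here than the study names, the labels do not tie a library to an animal, and the p-values measure the spread between these libraries. Per the study's methods, TECs had been taken from kidney tissue with beads against prominin-1. The sample labels give blood as the source of the PMNs. TEC libraries held 21479605 to 51624602 reads (median 32090079) and PMN libraries 20881334 to 30507235 (median 24589450). Levels are given as CPM (read counts scaled to a common library total), which compare a gene between libraries, and as TPM, which are scaled by transcript length and were used to compare genes with each other.

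The labels were checked against marker genes. All 10 proximal tubule markers (Lrp2, Slc34a1 and Acsm2 among them, and Prom1, the target of the beads) were above 1 CPM in every TEC library, with a summed level of 10317 to 16984 CPM after sham surgery and 1592 to 9480 CPM after IRI. The 10 neutrophil markers summed to 6165 to 35399 CPM in PMN libraries and to 1.72 to 109 CPM in TEC libraries, where 1 to 7 of them were above 1 CPM. The PMN libraries also held tubule transcripts. In each, 9 or 10 of the 10 proximal tubule markers were above 1 CPM. These markers summed to 477 to 5382 CPM after sham surgery and to 301 to 532 CPM after IRI. The 8 markers of distal tubule and collecting duct were read too. They summed to 137 to 5310 CPM (median 548) in PMNs after sham surgery and 45.6 to 615 CPM (median 178) after IRI. In TECs these sums were 167 to 1184 CPM (median 328) and 95.3 to 609 CPM (median 256). The 6 macrophage markers summed to 2736 to 8825 CPM in PMN libraries after sham surgery and to 806 to 1850 CPM after IRI. The labels name blood for the PMN libraries, and the source of their tubule and macrophage transcripts was not tested. In TECs, 3 libraries stood apart. Sham control replicate 2 was the deepest and had reads in the fewest genes (13761). Sham control replicate 1 had a summed level of 10 tubular injury markers of 10759 CPM, against 1236 to 2781 CPM in the other sham libraries and 6411 to 17028 CPM after IRI. IRI RIPC replicate 3 kept the highest proximal tubule markers of the IRI libraries, 9480 CPM against 1592 to 3213 CPM in the others. The count of called members in TECs is given below with and without each of them. Of the other marker lists, 2 of 10 injury markers rose in TECs after IRI (Krt20 and Sox9, edgeR), and no marker of distal tubule, endothelium, neutrophils, macrophages, lymphocytes or erythrocytes was called. In PMNs no marker of any list was called after IRI.

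After sham surgery all 8 genes were read at depth in TECs, from 2782 reads (the lowest for Slc2a5) to 115081 reads (the highest for Pck1). Per length, Fbp1 had the highest level at 1041 ± 168 TPM (SD, n = 6 sham libraries), followed by Khk at 582 ± 129 TPM and Pck1 at 516 ± 272 TPM. G6pc at 153 ± 54.3 TPM and Slc37a4 at 145 ± 25.1 TPM came next, then Slc2a2 at 68.3 ± 28.8 TPM, Pcx at 59.7 ± 13.4 TPM and Slc2a5 at 46.8 ± 16.5 TPM. The ranges of neighbours in this order overlapped at every step but between Slc37a4 (112 to 181 TPM) and Slc2a2 (23.2 to 96.3 TPM). Pck1 varied most between sham libraries relative to its mean (SD 60.3% of the mean in CPM), and Slc37a4 (17.5%), Fbp1 (19.4%) and Pcx (20.8%) varied least.

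After IRI the mean TPM of every member was lower: Fbp1 was at 185 TPM, Khk at 117 TPM and Pck1 at 72.1 TPM, and these 3 genes remained the highest of the 8. Slc37a4 followed at 12.4 TPM, Pcx at 12.0 TPM, Slc2a5 at 6.11 TPM and Slc2a2 at 3.87 TPM. G6pc was at 2.15 TPM, although 4 members had lower levels than G6pc in sham TECs. The order of G6pc and Slc2a2 depended on the summary, since their medians over the 5 IRI libraries were 2.31 and 1.03 TPM.

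In TECs, 6 of the 8 genes were significantly lower 24 hours after IRI than after sham surgery, namely Pcx, Pck1, Fbp1, G6pc, Slc37a4 and Khk (edgeR quasi-likelihood F test, Benjamini-Hochberg adjusted p under 0.05 over all genes). The decreases ran from 5.27-fold for Fbp1 to 73.4-fold for G6pc. Of all 25917 genes tested, 1.15% were called lower. The 8 genes were chosen with earlier results of these data known, so that share stands beside the 6 of 8 as a description only. In all 8 genes every IRI library was below every sham library, which held for 3.01% of all genes. The median log2 fold change of the 8 was -3.13, against 0.15 for all genes tested. In bulk RNA, fewer cells of a type and less RNA per cell cannot be told apart, and the summed proximal tubule markers were lower in the same IRI libraries.

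**Figure D1:**
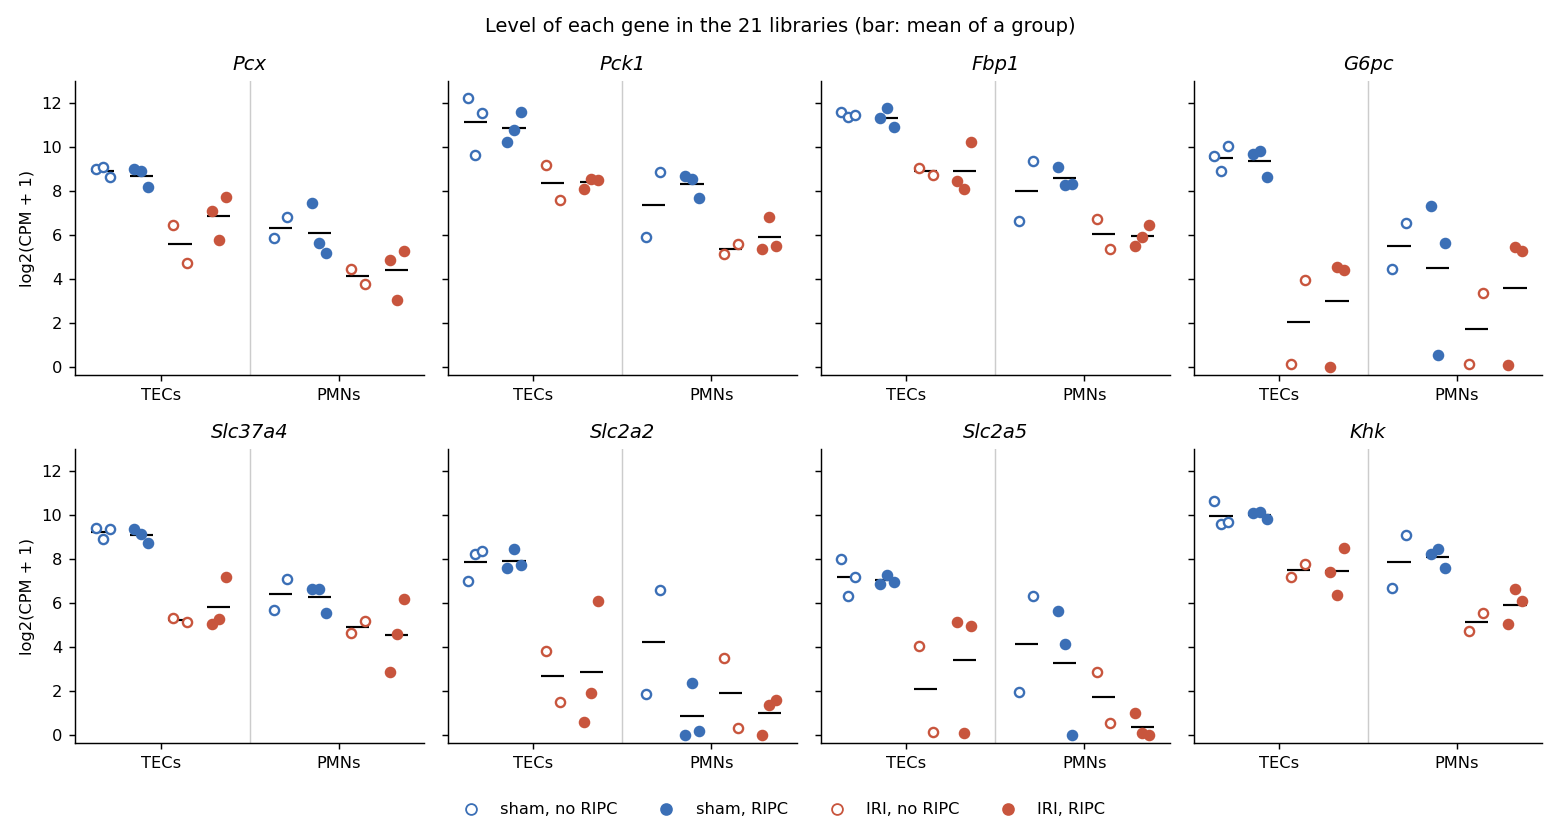
Level of the 8 genes in each of the 21 libraries, on an axis of log2(CPM + 1), with PMNs and TECs side by side, sham surgery in blue, IRI in red, RIPC as filled points, no RIPC as open points and the group mean as a black bar. In TECs the 5 IRI libraries lie below the 6 sham libraries for every gene, G6pc reaches 0 in 1 IRI library, and PMN libraries of sham mice reach up to 663 CPM for Fbp1.

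The entry steps were lower together. Pcx, which makes the oxaloacetate that Pck1 uses, read 504, 536 and 399 CPM in the sham control libraries and 511, 484 and 287 CPM in the sham RIPC libraries. After IRI it read 85.5 and 25.4 CPM in the control and 133, 54.0 and 208 CPM in the RIPC libraries. All IRI values lay below the lowest sham value, and the IRI RIPC library with the highest proximal tubule markers was the highest of them. This was a log2 fold change of -2.45 (SE 0.45, adjusted p = 0.0176, edgeR).

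Pck1, the step most often taken as rate limiting for gluconeogenesis, read 4757, 801 and 2943 CPM in the sham control and 1211, 1756 and 3037 CPM in the sham RIPC libraries. After IRI the levels were 580 and 189 CPM in the control and 275, 375 and 365 CPM in the RIPC libraries. The 801 CPM of sham control replicate 2, the deepest library, lay closest to the IRI range, and the highest level was in sham control replicate 1, the library with raised injury markers. The log2 fold change was -2.75 (SE 0.47, adjusted p = 0.0127, edgeR), and -2.44 without that library (adjusted p = 0.0162).

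The promoters of Pck1 and G6pc are shown because these 2 genes, an early step and the last step of glucose production, both fell in TECs after IRI. The sequences come from RefSeq (GRCm38.p6), on the plus strand, and end at the base before the gene's first annotated base. Capitals mark letters of an HNF1 half-site (GTTAAT or its reverse complement ATTAAC) and of a half-site of the cAMP response element (ACGTCA).
Pck1 promoter, chr2:173152823-173153047: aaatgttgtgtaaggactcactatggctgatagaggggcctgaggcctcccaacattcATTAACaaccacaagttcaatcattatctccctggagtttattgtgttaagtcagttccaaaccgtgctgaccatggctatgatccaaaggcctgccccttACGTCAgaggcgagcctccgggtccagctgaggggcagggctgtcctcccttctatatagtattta
G6pc promoter, chr11:101367466-101367560: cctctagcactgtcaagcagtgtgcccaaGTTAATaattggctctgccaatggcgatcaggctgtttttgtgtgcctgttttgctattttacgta
HNF1 is a transcription factor of the proximal tubule and liver, and the cAMP response element is bound by CREB. Counted from the RefSeq start, the HNF1 letters lay at bases -192 to -187 of Pck1 and -221 to -216 of G6pc, and the ACGTCA letters at -91 to -86 of Pck1. Over 250-base windows on either strand, GTTAAT was held by 3 of the 11 windows of the members (Pck1, G6pc and Khk) and by 6.43% of 32851 windows of all genes. ACGTCA was held by 3 of 11 windows (1 of Pck1 and 2 overlapping ones of Slc37a4) and by 6.47% of all windows. TATAAA was held by 2 of 11 (G6pc, outside the stretch shown, and Slc37a4) and by 12.37% of all. The HNF4 letters CAAAGTCCA were in none of the 11 and in 0.38% of all windows. These matches describe the letters only, and no binding was measured.

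Fbp1, whose product removes the phosphate that glycolysis adds at phosphofructokinase, had the highest TPM of the members in sham TECs. It read 3111, 2615 and 2830 CPM in the sham control and 2586, 3492 and 1911 CPM in the sham RIPC libraries. After IRI it read 530 and 426 CPM in the control and 351, 272 and 1188 CPM in the RIPC libraries, the last of these again in the library with the highest proximal tubule markers. Fbp1 changed by -2.40 on the log2 scale (SE 0.39, adjusted p = 0.00985, edgeR).

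Among the 6 called members, G6pc, the final step, had the largest estimated decrease. G6pc read 778, 474 and 1050 CPM in the sham control and 815, 902 and 400 CPM in the sham RIPC libraries, or 9041 to 27927 reads. After IRI it read 0.0797 and 14.4 CPM in the control libraries (2 and 315 reads) and 0, 22.0 and 19.9 CPM in the RIPC libraries (0, 520 and 432 reads). The library without a G6pc read had 26812651 reads, and a count of 0 there allows up to 3 reads, or 0.115 CPM, for counting error only. The IRI libraries thus fell into 2 with almost no G6pc and 3 with 14.4 to 22.0 CPM, of which each kind had both a control and a RIPC library. The log2 fold change was -6.20 (SE 1.40, adjusted p = 0.0449, edgeR). The call was lost when any 1 of the 6 sham libraries was left out (adjusted p = 0.0521 to 0.162).

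Slc37a4, the glucose 6-phosphate transporter that works with G6pc, had the strongest evidence of the 8 and ranked 16 of 25917 genes by p. It read 669, 483 and 652 CPM in the sham control and 645, 566 and 425 CPM in the sham RIPC libraries. The IRI libraries read 38.3 and 34.1 CPM in the control and 31.5, 37.6 and 143 CPM in the RIPC group. The 4 low libraries lay within 31.5 to 38.3 CPM, and the fifth was the one with the highest proximal tubule markers. Its log2 fold change was -3.54 (SE 0.46, adjusted p = 0.00322, edgeR), an 11.6-fold decrease.

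The 2 hexose transporters were lower in every IRI library but did not pass the test. Slc2a2 read 124, 294 and 331 CPM in the sham control and 188, 344 and 209 CPM in the sham RIPC libraries. After IRI it read 13.1 and 1.83 CPM in the control and 0.500, 2.71 and 66.5 CPM in the RIPC libraries, a wide spread on the log scale. Its log2 fold change was -4.29 (SE 1.06, 95% interval -6.55 to -2.03, adjusted p = 0.0648, edgeR), and without IRI RIPC replicate 3 it was -6.17 (adjusted p = 0.00133). It also passed the threshold without IRI control replicate 1, IRI control replicate 2 or IRI RIPC replicate 1 (adjusted p = 0.00633 to 0.0391). In sham TECs only 28.7% to 51.9% of the Slc2a2 reads were assigned to Slc2a2-201, the single transcript annotated as protein coding, and after IRI that transcript held 4 to 504 reads.

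Slc2a5, the fructose transporter, read 251, 78.7 and 145 CPM in the sham control and 116, 151 and 123 CPM in the sham RIPC libraries. After IRI it read 15.5 and 0.0915 CPM in the control and 34.2, 0.0423 and 30.1 CPM in the RIPC libraries. The 2 lowest libraries, at 2 reads or fewer, were below the level that 3 reads would give (0.137 and 0.127 CPM). The log2 fold change was -3.52 (SE 1.18, 95% interval -6.06 to -0.99, adjusted p = 0.193, edgeR). Without IRI control replicate 1 it was -6.68 (adjusted p = 0.00318).

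Khk, the entry of fructose into metabolism, read 1587, 768 and 806 CPM in the sham control and 1068, 1106 and 885 CPM in the sham RIPC libraries. It read 145 and 215 CPM in the IRI control and 168, 81.9 and 362 CPM in the IRI RIPC libraries. Its log2 fold change was -2.47 (SE 0.41, adjusted p = 0.0109, edgeR).

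Khk is known for a pair of alternative exons of equal length that give proteins of different fructose affinity, and the exons are shown because the reads can be split by them. They lie at exon positions annotated in GRCm38 on the plus strand of chromosome 5, both of the same length (135 bases), and capitals mark the 73 positions (54.1%) at which they are identical when aligned without gaps.
Khk upstream exon, chr5:30926688-30926822: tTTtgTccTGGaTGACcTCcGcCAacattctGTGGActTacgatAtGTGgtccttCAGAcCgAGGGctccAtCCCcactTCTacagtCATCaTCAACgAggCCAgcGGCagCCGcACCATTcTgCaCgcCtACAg
Khk downstream exon, chr5:30927022-30927156: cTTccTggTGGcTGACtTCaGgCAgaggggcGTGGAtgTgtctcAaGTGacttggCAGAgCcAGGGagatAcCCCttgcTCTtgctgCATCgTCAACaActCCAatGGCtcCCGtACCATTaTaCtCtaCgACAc
The longest run they share is 6 bases, which is short against the 50-base reads. In sham TECs, 57.1% to 82.6% of Khk reads (median 70.0%) were assigned to Khk-204, the transcript with the downstream exon alone, and after IRI 53.6% to 79.8% (median 65.7%). The transcript with the upstream exon alone, Khk-205, held at most 1.50% in sham and 1.89% in IRI libraries. Khk-201, which holds both exons, took 10.2% to 27.5% and 6.73% to 25.3%. The ranges of sham and IRI libraries overlapped for each of these shares. Khk-202, annotated as a retained intron, took 6.72% to 14.0% of Khk reads in sham TECs (median 10.6%) and 13.5% to 23.6% in IRI TECs (median 20.0%), with an overlap between 13.5% and 14.0%. In PMN libraries Khk-204 held 36.5% to 70.6% of Khk reads after sham surgery and 30.7% to 52.4% after IRI. These shares are estimates of Salmon, were not tested, and depend on how it divides reads that fit several transcripts.

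**Figure D2:**
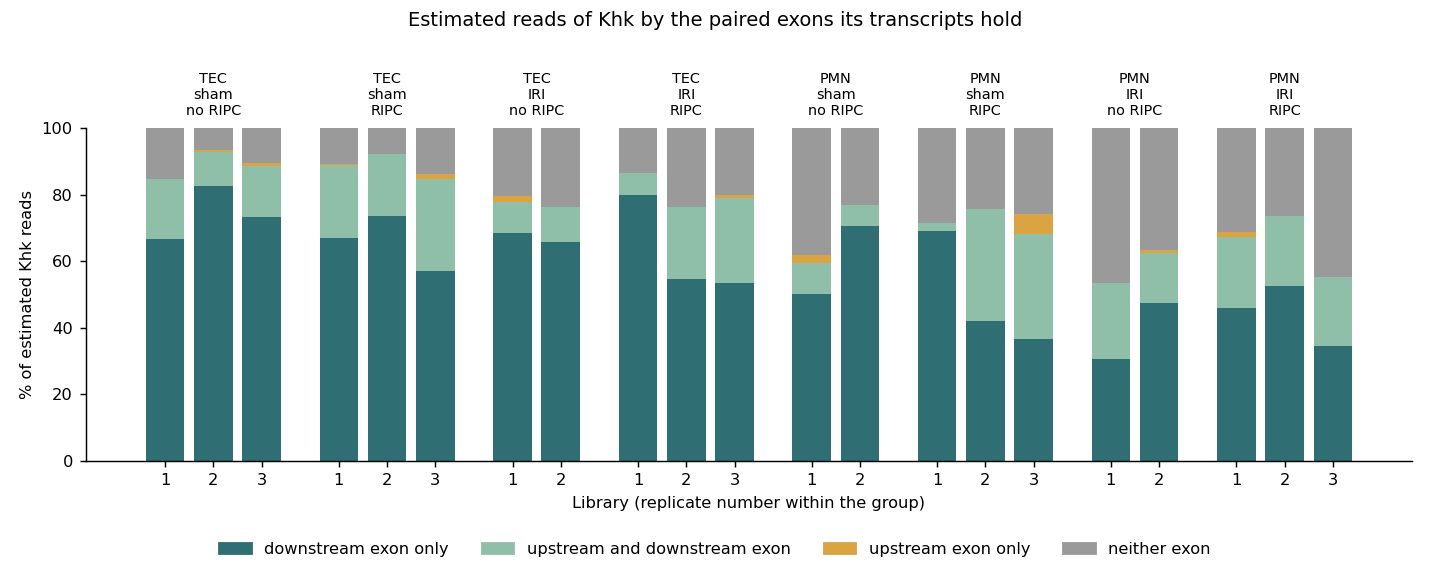
Share of Khk reads (percent) assigned to transcripts with the downstream exon alone, with both alternative exons, with the upstream exon alone and with neither, stacked for each of the 21 libraries. The downstream exon alone makes up 53.6% to 82.6% in TEC libraries, and the upstream exon alone at most 1.89%.

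The fold changes were next set beside those of the proximal tubule markers. Among the 10 proximal tubule markers, 5 were called lower (Lrp2, Slc34a1, Slc22a6, Slc27a2 and Miox), and their median log2 fold change was -2.02. Each member was therefore also expressed as a percent of the summed CPM of the 10 markers in the same library, as a description and without a test. G6pc was 2.79% to 7.22% of the marker sum in sham and 0% to 1.38% in IRI libraries. Slc37a4 was 2.85% to 6.22% and 1.19% to 2.36%, and Slc2a2 was 1.15% to 2.19% and 0.0193% to 0.702%. For these 3 of 8 members all IRI libraries remained below all sham libraries, which was so for 0.259% of all genes (and the reverse for 11.8%).

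For the other 5 members the ratios overlapped. Pck1 was 4.71% to 44.2% of the marker sum in sham and 3.85% to 23.6% in IRI libraries, and Fbp1 was 15.4% to 28.9% and 12.5% to 17.1%. Khk was 4.52% to 14.7% and 3.82% to 8.60%, Pcx 2.58% to 4.69% and 1.02% to 5.13%, and Slc2a5 0.463% to 2.33% and 0.00266% to 1.32%. On this scale the genes of glucose 6-phosphate hydrolysis and GLUT2 did not overlap between surgeries, and Pcx, Pck1, Fbp1, Khk and Slc2a5 did. The marker sum follows its most abundant genes, in sham TECs Slc34a1 (mean 4130 CPM), Acsm2 (2506 CPM), Miox (2417 CPM) and Slc27a2 (1597 CPM).

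**Figure D3:**
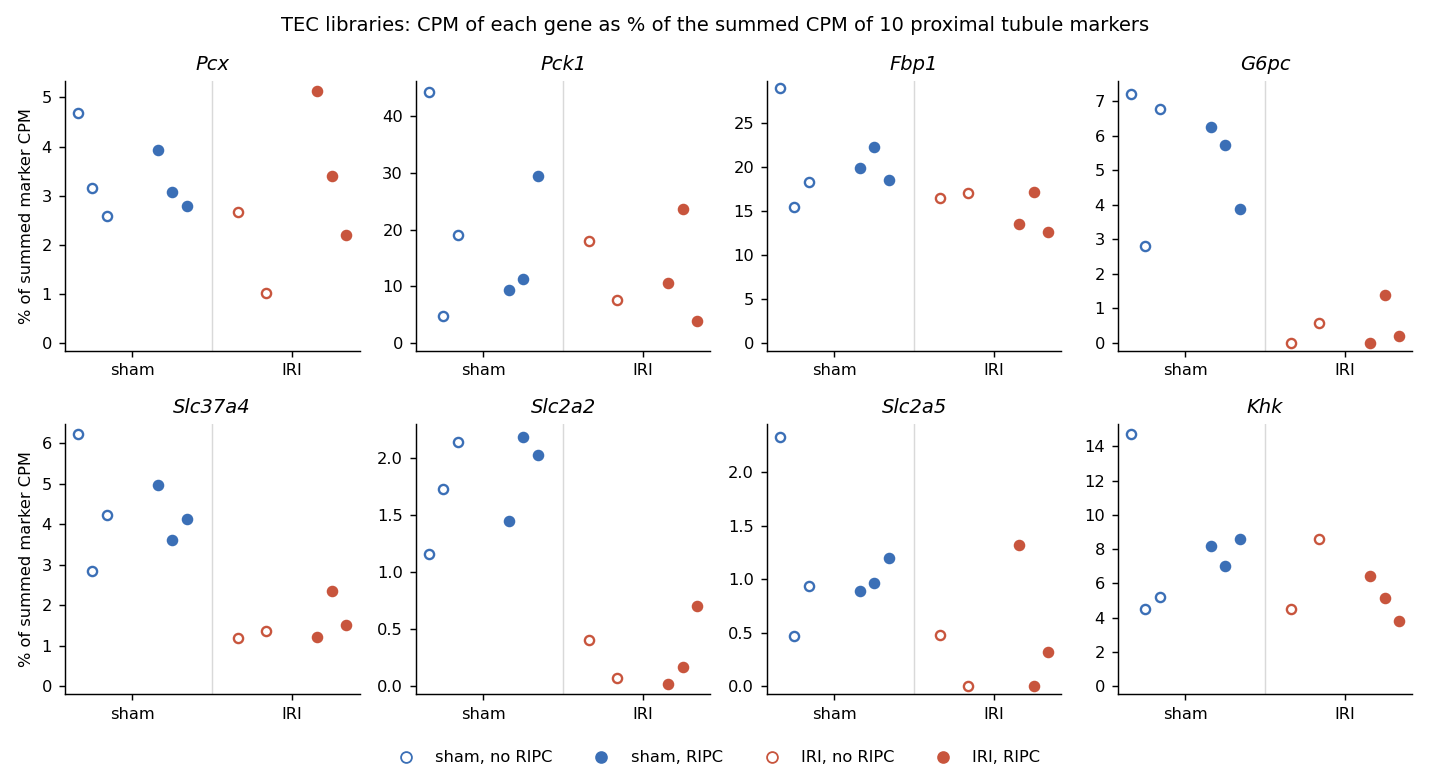
Level of each gene as a percent of the summed CPM of 10 proximal tubule markers in each TEC library, sham surgery in blue and IRI in red, RIPC filled and control open. The IRI points lie below all sham points for G6pc (at most 1.38% against at least 2.79%), Slc37a4 and Slc2a2, and overlap with them for the other 5 genes.

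The number of genes called depended on the libraries and groups used. Leaving out each TEC library in turn gave 4 to 8 called members: 5 without sham control replicate 1, 4 without sham control replicate 2, and 7 without IRI RIPC replicate 3. Pck1, Fbp1, Khk and Slc37a4 were called in all 11 of these fits. Pcx was lost without sham control replicate 2, sham RIPC replicate 1 or sham RIPC replicate 2 (adjusted p = 0.0537 to 0.0620). When IRI was compared with sham within the control groups alone or the RIPC groups alone, 0 of 8 were called in edgeR, with 0.0661 and 0.0748 as the smallest adjusted p (both for Slc37a4), and 8 and 7 members had an unadjusted p under 0.05, against 8.59% and 8.85% of all genes. All 8 log2 fold changes were negative in both, between -6.75 and -2.59 in control and between -5.65 and -1.72 in RIPC groups.

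Other genes of the pathway, taken from lists of further enzymes, glycolytic enzymes, transporters and regulators, were read in the same comparison. Of 14 further enzymes of gluconeogenesis and fructose or sorbitol use that could be tested, 4 fell and none rose, with a median log2 fold change of -0.97. Among them, Mdh1, the cytosolic malate dehydrogenase, changed by -2.93 on the log2 scale (adjusted p = 0.0123), and Tkfc, the triokinase of fructolysis, by -2.88 (adjusted p = 0.0127). Sord, which makes fructose from sorbitol, changed by -1.80 (adjusted p = 0.0397).

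Of 11 tested genes of the list of glycolytic enzymes, 2 fell and none rose (median log2 fold change -0.68). This list also held Pdk4, which holds pyruvate back from oxidation and is not itself a glycolytic enzyme. Pfkm, the muscle-type phosphofructokinase subunit, was at 11.9 to 59.2 CPM in sham and 0 to 0.577 CPM in IRI libraries (adjusted p = 0.0166). Pklr, the pyruvate kinase of liver and kidney, was at 5.58 to 74.6 CPM in sham and 0 to 2.63 CPM in IRI libraries (adjusted p = 0.0336). Of 11 tested hexose and substrate transporters, 2 fell (median -2.77), both monocarboxylate carriers that take up lactate with sodium. These were Slc5a12, at 127 to 458 CPM in sham and 0.0797 to 80.9 CPM in IRI libraries (adjusted p = 0.00184), and Slc5a8, at 51.1 to 263 CPM and 8.69 to 21.6 CPM (adjusted p = 0.0223).

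None of the 16 regulators passed the threshold in edgeR, and 6 had an unadjusted p under 0.05. Hnf4a, a transcription factor of proximal tubule and liver metabolism, changed by -1.74 (SE 0.48, adjusted p = 0.101), and Ppargc1a, the coactivator of mitochondrial and gluconeogenic genes, by -2.23 (SE 0.64, adjusted p = 0.120). Of all genes, 15% had an unadjusted p under 0.05. Both regulators had IRI and sham libraries that overlapped.

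In PMNs the same 8 genes had lower estimates after IRI, but none was called in edgeR, where 0.052% of 25002 genes were called lower and 0.416% in either direction. The log2 fold changes lay between -4.77 (Slc2a5) and -1.48 (Slc37a4), with a median of -2.52, and 50.3% of all genes tested had a negative value. At an unadjusted p under 0.05 there were 4 of 8 members (Pck1, Fbp1, Khk and Pcx), against 11.8% of all genes, and the DESeq2 Wald test called 4, where it called 7.82% of all genes. The 10 proximal tubule markers had a median log2 fold change of -2.49 in the same libraries, with all 10 negative and 0 called. How far tubule transcripts in the PMN libraries set the members' change was not tested.

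Khk was the single member whose PMN libraries did not overlap between IRI and sham surgery, which held in this direction for 2.03% of all genes. It read 99.6 and 547 CPM in the sham control and 298, 342 and 189 CPM in the sham RIPC libraries, and after IRI 25.1 and 45.9 CPM in the control and 31.7, 96.5 and 67.1 CPM in the RIPC libraries. Its log2 fold change was -2.66 (SE 0.57, 95% interval -3.93 to -1.38, adjusted p = 0.123, edgeR).

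Pck1 in PMNs read 58.1 and 463 CPM in the sham control and 403, 374 and 205 CPM in the sham RIPC libraries, and 34.2, 47.5, 40.4, 112 and 43.8 CPM after IRI. Fbp1 read 97.4 and 663 CPM in the sham control and 551, 310 and 318 CPM in the sham RIPC libraries, against 39.7 to 103 CPM after IRI. For Pck1, Fbp1 and Khk the lowest sham value was that of control replicate 1 and the highest that of control replicate 2. The proximal tubule markers of these 2 libraries summed to 477 and 5382 CPM, the lowest and the highest of the PMN libraries after sham surgery. Without control replicate 1, 3 members were called in edgeR (Pck1, adjusted p = 0.0206, Fbp1, adjusted p = 0.0150, and Khk, adjusted p = 0.0182). Without control replicate 2, none was called and 4 members had an unadjusted p under 0.05, against 5.77% of all genes, and the 3 log2 fold changes were -1.38, -1.50 and -1.75.

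G6pc in PMNs was at 0.456 to 157 CPM after sham surgery and at 0.0408 to 42.0 CPM after IRI, Pcx at 35.4 to 174 CPM and 7.30 to 37.4 CPM, and Slc37a4 at 44.9 to 134 CPM and 6.28 to 70.7 CPM. Slc2a2 (0 to 96.0 CPM and 0 to 10.3 CPM) and Slc2a5 (0 to 77.9 CPM and 0 to 6.28 CPM) were at or near 0 in several libraries of either surgery. The ranges of all 5 genes overlapped. Among the pathway lists, Pkm, the pyruvate kinase of most tissues, rose in PMNs after IRI by 2.09 on the log2 scale (adjusted p = 0.0374, edgeR), and Slc2a1 (GLUT1) rose by 2.38 (adjusted p = 0.0215).

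**Figure D4:**
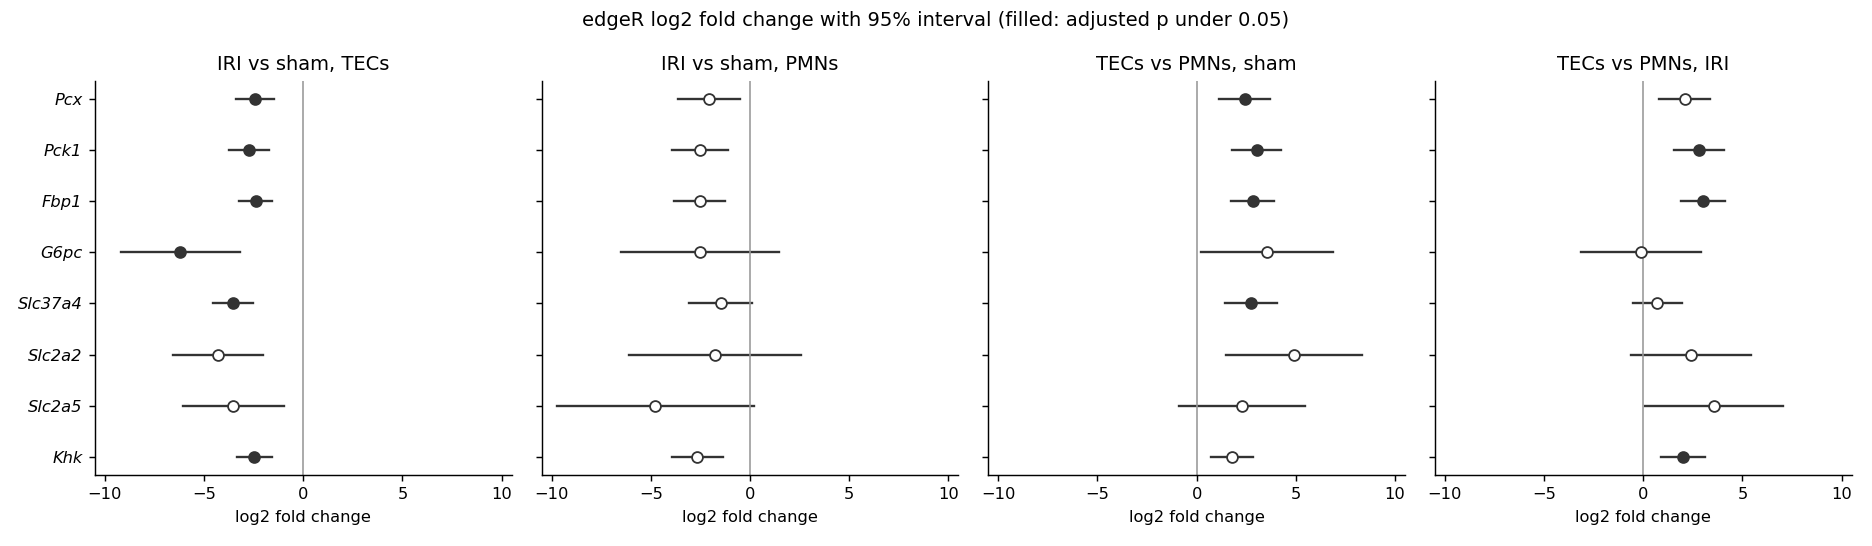
Log2 fold change of each gene with its 95% interval in 4 comparisons (IRI against sham in TECs and in PMNs, and TECs against PMNs after sham surgery and after IRI), filled where the adjusted p was under 0.05. In TECs all 8 estimates lie below 0, from -6.20 to -2.40, with 6 filled, and in PMNs none of the 8 is filled.

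Whether the change after IRI differed between the cell types was tested as a difference of the IRI effect in 1 fit of all 21 libraries. No gene was called (0% of 31769 genes in edgeR, and 0 of 8 members), and 1 member had an unadjusted p under 0.05, against 9.76% of all genes. That was Slc37a4, with a difference (TECs minus PMNs) of -2.03 on the log2 scale (SE 0.83, 95% interval -3.76 to -0.31, adjusted p = 0.399). For G6pc the difference was -3.69 (SE 2.09, 95% interval -8.05 to 0.67, adjusted p = 0.640). For Pck1, Fbp1 and Khk it was -0.22, 0.17 and 0.20, with 95% intervals that reached from -1.81 to 1.66, so that a difference between the cell types was not detectable for them at this number of libraries. The DESeq2 Wald test gave 0 called members as well.

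The levels of the cell types were then compared. After sham surgery 4 of the 8 members were higher in TECs than in PMNs (edgeR, adjusted p under 0.05), where 1.13% of all genes were called higher. The log2 fold change was 3.03 for Pck1 (SE 0.59, adjusted p = 0.00581), 2.83 for Fbp1 (SE 0.52, adjusted p = 0.00352), 2.74 for Slc37a4 (SE 0.62, adjusted p = 0.0174) and 2.42 for Pcx (SE 0.61, adjusted p = 0.0348). The values of the others were 1.79 for Khk (adjusted p = 0.0665), 3.56 for G6pc (0.259), 4.90 for Slc2a2 (0.132) and 2.28 for Slc2a5 (0.451). In all 8, every TEC library was above every PMN library, which held for 3.75% of all genes. Without PMN sham control replicate 1, 2 members were called (Pck1 and Fbp1), and Pcx was called in 3 of the 11 fits with a library removed.

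After IRI 3 of 8 were higher in TECs, where 1.17% of all genes were called higher: Fbp1 by 3.00 (SE 0.54, adjusted p = 0.00322), Pck1 by 2.80 (SE 0.60, adjusted p = 0.0114) and Khk by 1.996 on the log2 scale (SE 0.53, adjusted p = 0.0469). The libraries did not overlap for Pck1 and Fbp1, as for 2.94% of all genes. G6pc was at similar means in both cell types, with a log2 fold change of -0.13 (SE 1.45, 95% interval -3.16 to 2.90, adjusted p = 1.00), and its mean was 11.3 ± 10.6 CPM in TECs and 17.6 ± 20.4 CPM in PMNs (SD, n = 5 each). Slc37a4 differed by 0.70 (95% interval -0.53 to 1.94, adjusted p = 0.703). Khk was called in 2 of the 10 fits that left out 1 library, and without PMN IRI control replicate 1 only Fbp1 was called.

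Over the 4 combinations of cell type and surgery, sham TECs had the highest mean of each member. IRI TECs and sham PMNs came next, with ranges that overlapped for all 8 genes, for instance 189 to 580 CPM and 58.1 to 463 CPM for Pck1. IRI PMNs had the lowest mean of 7 members, the exception being G6pc. The mean CPM of a member in sham PMNs was 8.27% to 28.5% of that in sham TECs (median 14.4%), and for the 10 proximal tubule markers it was 6.20% to 52.6% (median 18.0%). After IRI these shares were 9.68% to 156% for the members (median 18.8%) and 6.56% to 22.9% for the markers (median 9.96%), and the 156% was that of G6pc. The contribution of tubule transcripts to the members' level in PMN libraries was not tested.

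Within the pathway lists, 6 of 15 further enzymes were higher in TECs than in PMNs after sham surgery, among them Sord (log2 fold change 3.30, adjusted p = 0.00412), Got2, Ldhb, Tkfc and Mdh2, and none was lower. Of the 12 genes of the glycolytic list, Ldha and Pdk4 were higher and Pkm (-4.06, adjusted p = 5.34e-05, edgeR), Hk2 and Hk3 lower. Slc5a2, the glucose uptake carrier of the proximal tubule and itself among the tubule markers, was higher by 4.18 (adjusted p = 0.00152). The transporter Slc2a3 was lower, with a log2 fold change of -3.49 (adjusted p = 0.00961). Slc2a6 had 0 reads in all 6 sham TEC libraries and 5.10 to 111 CPM in sham PMN libraries. Hnf4a was higher by 4.25 (adjusted p = 0.0190).

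After IRI, 5 of 15 further enzymes were higher in TECs than in PMNs, among them Ldhb, Sord, Tkfc and Fbp2, and none lower. Pdk4, which holds pyruvate back from oxidation, and Slc5a2 were higher, and Pkm, Slc2a6 and Slc2a3 lower. Of the 16 regulators, Hnf4a was higher by 5.72 (adjusted p = 0.00485) and Mlxipl, a carbohydrate-sensing transcription factor, by 7.11 (adjusted p = 0.0319).

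RIPC was compared with control within each surgery and cell type, to ask whether preconditioning moved these genes. In TECs after sham surgery, the 8 log2 fold changes lay between -0.51 and -0.04 (median -0.15, against 0.21 for all genes), where 41.7% of all genes were below 0. None of the 8 was called by edgeR or DESeq2. In edgeR 0% of all genes were called, and 0 of 8 members had an unadjusted p under 0.05, against 4.53% of all genes. Of 25917 genes, the DESeq2 Wald test called 425 and DESeq2 with apeglm 148. The 95% intervals were widest for Slc2a5 (-3.20 to 2.61) and G6pc (-3.06 to 2.79) and narrowest for Fbp1 (-1.14 to 0.89) and Khk (-1.13 to 1.00), and all 8 included 0. For 7 of the 8, all but Slc37a4, the estimate took the other sign when 1 of the sham libraries was left out.

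In TECs after IRI, 7 of 8 log2 fold changes of RIPC against control were above 0, with a median of 0.97 against 0.15 for all genes (of which 43.4% were below 0). None of the 8 was called by edgeR or DESeq2. In edgeR 0.00386% of all genes were called, and 0 of 8 members had an unadjusted p under 0.05, against 4.35%. The DESeq2 Wald test called 699 genes and DESeq2 with apeglm 361. The largest change of a member in relation to its error was that of Pcx at 1.26 (SE 0.64, 95% interval -0.12 to 2.63, adjusted p = 0.778, edgeR). Slc37a4 was at 0.97 (95% interval -0.34 to 2.28, adjusted p = 0.778), and Pck1 at -0.16 (95% interval -1.51 to 1.19). IRI RIPC replicate 3, with the highest proximal tubule markers, had the highest value of the 5 IRI libraries for Pcx, Fbp1, Slc37a4, Slc2a2 and Khk. Without it the estimate for Slc37a4 was -0.0042, that for Pcx 0.79, and those for Fbp1, Khk and Slc2a2 turned to -0.57, -0.51 and -2.10. Without IRI control replicate 1, G6pc turned to -0.027 and Pck1 to 0.84, so that 6 of 8 estimates did not keep their sign. The interaction of RIPC with surgery gave 0 of 8 called members by edgeR and DESeq2, with a median of 1.12. In edgeR 0% of all genes were called, and 0 of 8 members had an unadjusted p under 0.05, against 7.21% of all genes. The DESeq2 Wald test called 597 genes and DESeq2 with apeglm 221.

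In PMNs RIPC gave no called member by edgeR or DESeq2, after sham surgery or after IRI. In edgeR 0.004% and 0% of all genes were called, and 0 of 8 members had an unadjusted p under 0.05 in either (against 4.6% and 2.72% of all genes). The DESeq2 Wald test called 813 genes after sham surgery and 429 after IRI, and DESeq2 with apeglm 630 and 157. After sham surgery 4 estimates were below 0 and 4 above, with a median of -0.11. The largest was -5.15 for Slc2a2 (SE 2.89, 95% interval -11.68 to 1.38, adjusted p = 0.705), whose PMN libraries read 2.64 and 96.0 CPM in the control and 0, 4.06 and 0.104 CPM in the RIPC group. It was -0.93 without sham control replicate 2 and -9.78 without sham RIPC replicate 2, and the other 7 members took the other sign when 1 library was left out. After IRI the median was 0.33 and 5 of 8 were above 0. The interaction in PMNs gave no called member in edgeR or DESeq2. In edgeR 0% of all genes were called, and 0 of 8 members had an unadjusted p under 0.05, against 5.74% of all genes. The DESeq2 Wald test called 669 genes and DESeq2 with apeglm 371.

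**Figure D5:**
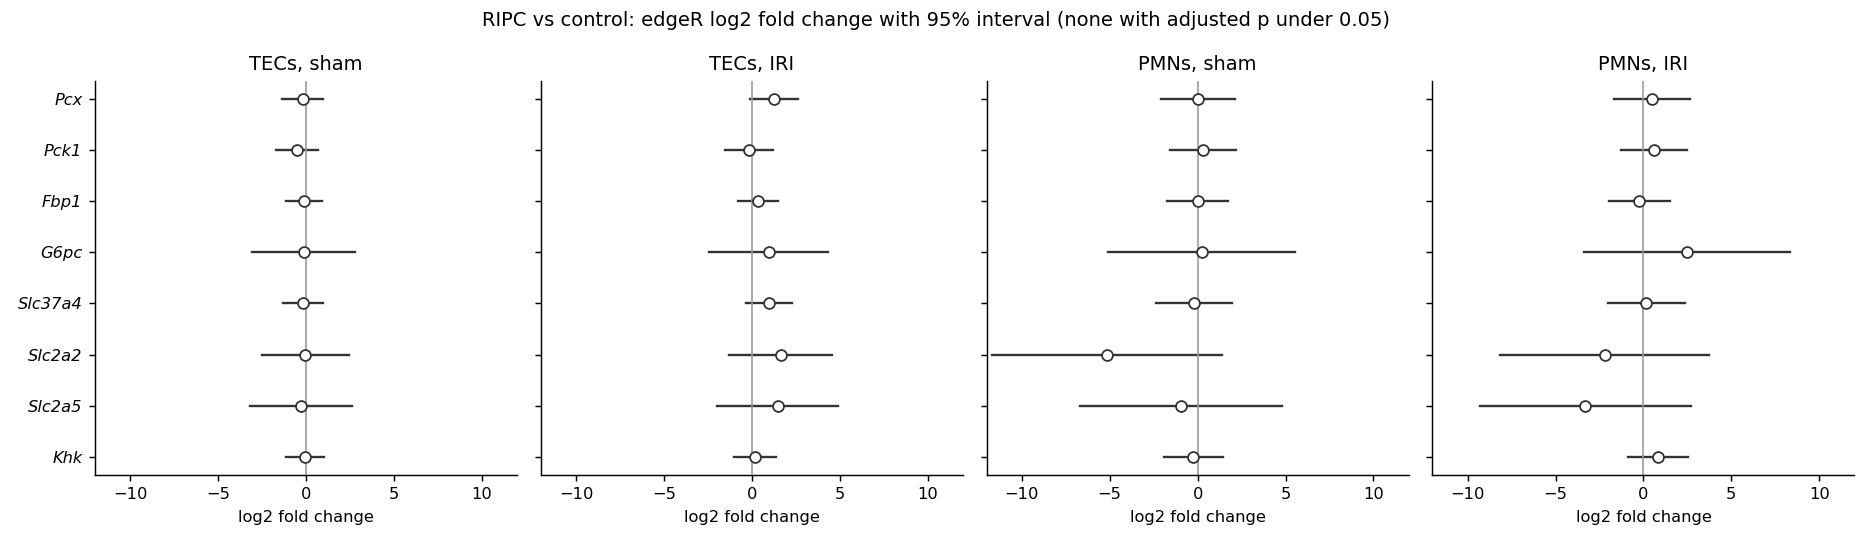
Log2 fold change of RIPC against control with its 95% interval for each gene, in TECs and PMNs after sham surgery and after IRI. All 32 intervals include 0, and the TEC estimates after sham surgery lie between -0.51 and -0.04.

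Among 8051 genes with a mean of at least 10 CPM in TECs, the profiles most like each member over the 11 TEC libraries were found by the root mean square difference of log2(CPM + 1), each profile centred on its mean. Khk was closest to Atp6v0a4 (0.254) and next to Fbp1 (0.348), the single case of a member next to another member. Fbp1 was closest to Grhpr (0.268) and Cideb (0.280), Pcx to Folr1 (0.309) and Acbd4 (0.352), and Slc37a4 to Dmtn (0.318) and Amt (0.445). Pck1 (Rfxank, 0.528), Slc2a2 (Acss2, 0.596), Slc2a5 (Scrn2, 0.667) and G6pc (Pdzd3, 1.35) had no neighbour as near. All profiles share the libraries and the contrast between sham surgery and IRI.

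In the mouse genome (GRCm38) the members lie apart from each other, and none shares a chromosome with another. Pck1 (ENSMUSG00000027513) is at chr2:173153048-173159273, Fbp1 (ENSMUSG00000069805) at chr13:62864753-62888282 on the minus strand, and G6pc (ENSMUSG00000078650) at chr11:101367561-101377903. Khk (ENSMUSG00000029162) is at chr5:30921431-30931248, Pcx (ENSMUSG00000024892) at chr19:4510472-4621752, and Slc2a2 (ENSMUSG00000027690) at chr3:28697903-28731359. Slc2a5 (ENSMUSG00000028976) is at chr4:150119283-150144169 and Slc37a4 (ENSMUSG00000032114) at chr9:44396852-44402968. Values are sums over all annotated transcripts of a gene, from 1 for G6pc to 7 for Pcx and Slc37a4.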

How the data were processed

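RNA was reverse transcribed from poly(A) ends with template switching, amplified as full-length cDNA and read as single-end 50-base reads. There were no molecular identifiers, so that the floors set by a read count cover counting error only. The intervals of the log2 fold changes come from the edgeR fit and measure the spread between libraries. Per the labels and the study's methods, the authors trimmed reads with Trim Galore 0.6.4 and quantified them with Salmon 1.0.0 against mm10 transcripts. FastQC, MultiQC and DESeq2 also stand in the submitters' processing notes. The deposited files, 2 for each library, give for each transcript an estimated count of reads (NumReads), and the authors' TPM values, normalized by Salmon for effective length and library total. No other normalization was applied before deposit.

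For each gene, the estimated counts of its transcripts were added up across both files and rounded. Transcript IDs were matched to genes of Gencode M21 (GRCm38), whereas the study's methods name release M23. Of 140748 transcripts 139864 matched, and the rest held 0.139% to 0.255% of the reads of a library. Genes of the sex chromosomes and mitochondria were left out, as in the study. The squared difference between the 2 files of a library was 0.028 to 0.14 of what independent sampling would give, so both files were counted as 1 library. If both files quantify overlapping reads, the summed depths, read counts and 3-read floors count such reads more than once, whereas CPM and fold changes scale with the library total. TPM values were averaged over both files and summed over transcripts.

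Groups were compared with edgeR 4.0.16 (R 4.3.3, quasi-likelihood F test) with TMM normalization, filterByExpr and 1 mean per group. The model was fitted on the 11 TEC or 10 PMN libraries, and on all 21 for comparisons between cell types. IRI was compared with sham as the average over RIPC and control. Adjusted p-values are Benjamini-Hochberg over all genes tested, with a threshold of 0.05, and 95% intervals use the t quantile of the fit's degrees of freedom. CPM used TMM factors of all 21 libraries. The alternatives were DESeq2 1.42.0 (with and without apeglm 1.24.0, s-value under 0.01), RLE size factors, no filter, at least 10 reads in every library, each file alone, an offset for transcript length, robust dispersion, the replicate block, other sets of groups and leaving out each library. Data were simulated for TECs, IRI versus sham (25917 genes, 200 changed). The test recovered 13% of the genes changed 8-fold and 38% of those changed 64-fold, and 13 of 64 called genes were unchanged ones. The changed genes were drawn from all genes with a mean above 1 CPM, so the recovery does not describe the members' own level. No other comparison was simulated.

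The 8 members, the 4 pathway lists and the marker lists were chosen with earlier results of these data known. The named genes were all members, list genes past the threshold (1 of which is counted but not reported here), and the nearest profiles. Hnf4a and Ppargc1a were named outside this rule, after their values were seen. Promoter sequences came from RefSeq (GRCm38.p6).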

Additional observations from a re-analysis of the deposited data

Results flagged for a closer look

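The 8 genes were checked for a library far from the others in the 4 sets of 5 or 6 libraries of a cell type and surgery, RIPC and control together, which gave 32 sets. In 7 of them the highest library was separated from the rest by a gap that took a larger share of the range in CPM than Dixon's 95% critical value. That value assumes independent and normally distributed data. The sets share libraries and CPM are skewed, so the number of flags cannot be set against a chance rate. In TECs after IRI the library was IRI RIPC replicate 3 for Slc37a4 (gap 0.939 of the range), Slc2a2 (0.810) and Fbp1 (0.719), and this library also had the highest summed proximal tubule markers after IRI, 9480 CPM against 1592 to 3213 CPM. In PMNs after sham surgery it was control replicate 2 for Slc2a2 (0.958), the library with the highest proximal tubule markers of the PMN libraries. In PMNs after IRI it was control replicate 1 for Slc2a5 (0.844) and Slc2a2 (0.809), and RIPC replicate 2 for Pck1 (0.828), whose library had the highest proximal tubule markers of that set (532 CPM). The part of the tubule content in these values was not tested.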

How the results depend on the processing

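Over 24 alternative settings of IRI versus sham in TECs, every member that could be tested kept a negative log2 fold change. The number of called members was 5 to 8 for other size factors, filters, dispersion, single files, a transcript length offset and DESeq2, with G6pc and Slc2a5 not testable at 10 reads in every library, and 4 to 8 when a library was left out. It was 1 with both cell types in 1 fit (Slc37a4), and 0 within the control groups alone and 0 within the RIPC groups alone, where 8 and 7 members had an unadjusted p under 0.05, against 8.59% and 8.85% of all genes. RLE size factors moved the median of all genes from 0.15 to 0.28 and lost the call of G6pc (adjusted p = 0.0510).

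In PMNs after IRI, no filter gave 3 called members, 10 reads in every library 3 of 5 testable ones, both cell types in 1 fit 2, the DESeq2 Wald test 4, apeglm 4, and leaving out a library 0 to 3. Slc2a2 turned to 0.69 with the replicate block and ranged from -3.94 to 0.60 when a library was left out. For TECs versus PMNs after sham surgery, no filter and DESeq2 gave 7 each, and leaving out a library 2 to 4. After IRI, leaving out a library gave 1 to 3, and G6pc ranged from -3.31 to 2.71 (2.71 without PMN IRI control replicate 2, 0.13 without PMN IRI RIPC replicate 2, 0.036 without PMN IRI RIPC replicate 3, 0.38 without TEC IRI control replicate 1 and 0.18 without TEC IRI RIPC replicate 1). In PMNs Slc2a2 was 0.43 without PMN sham control replicate 2 and 0.60 without PMN sham RIPC replicate 2. For RIPC in TECs after IRI, Slc37a4 ranged from -0.0042 to 1.33. The difference of the IRI effect between the cell types gave 1 call with no filter (G6pc, adjusted p = 0.00926). The share of all genes called moved with the setting too. For IRI versus sham in PMNs it was 0.416% in edgeR and 7.82% in the DESeq2 Wald test. Counts of called members are therefore not comparable between settings. The causes of these shifts were not tested.

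Replicate numbers were checked for pairing within each cell type only. Same-numbered libraries of different groups had deviations correlated at r from -0.10 to 0.14. The r was above 0.1 in 1 of 15 TEC pairs and 0 of 13 PMN pairs. TEC and PMN libraries of the same number were not compared, and the main tests between cell types took all 21 libraries as independent. With the replicate block, 7 members were called in TECs after IRI (404 genes in all), 0 in PMNs, and 4 and 3 between the cell types after sham surgery and IRI. Groups of 2 or 3 libraries limit what a missed threshold can show. The recovery in simulated data covers IRI versus sham in TECs only. Below 0.0748 to 0.156 CPM (3 reads) a level was not resolved.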
